A study of Mus musculus with 24 samples.

Results

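The terminal step of eosinophil maturation in the mouse bone marrow was examined in steady state, by setting sorted eosinophils of stage IV, the last of 4 successive stages, against those of stage III. The 2 groups held 3 libraries each, so 6 of the 24 libraries of the series entered the comparison, and all 24982 genes counted were its starting point. Every mouse was wild type and of the strain C57BL6, and every library was made from cells pooled from 3 mice. The labels give no treatment for the steady state mice. The same step in mice given 400 ng of interleukin 33 (IL-33) into the peritoneum daily for 7 days, again with 3 libraries a stage, served as the second condition. Before sorting, bone marrow cells of all groups were depleted of cells bearing Ly6G, CD90.2, NK1.1 or CD45R with magnetic beads. The stages were then gated with antibodies to Siglec-F, CD29, CD117, F4/80, CD200R3, CD55 and Pir-A/B, to a stated purity of at least 95%. The age of the mice is not given in the sources used here.

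Eosinophils are granulocytes that differentiate in the bone marrow under interleukin 5. They fill specific granules with a few very abundant cationic proteins, made early and stored. Release of these granules is directed by vesicle fusion proteins, and an oxidase that produces superoxide works beside them. The transcription factor GATA-1 is required for the lineage, and GATA factors recognise the letters GATA in DNA.

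All 7 granule protein genes measured fell at this step (5.67% of all tested genes fell), so the start regions of 4 of them are shown, from 250 bases before to 50 bases after the annotated start, 5′ to 3′ on the gene's strand (RefSeq sequence, build GRCm38.p6). They are Epx at chr11:87875487-87875786 on the minus strand, Prg3 at chr2:84987965-84988264 on the plus strand, Ear1 at chr14:43819590-43819889 on the minus strand and Ear6 at chr14:51853518-51853817 on the plus strand. Capitals mark GATAA, searched on both strands and here met only as its reverse complement TTATC.
Epx: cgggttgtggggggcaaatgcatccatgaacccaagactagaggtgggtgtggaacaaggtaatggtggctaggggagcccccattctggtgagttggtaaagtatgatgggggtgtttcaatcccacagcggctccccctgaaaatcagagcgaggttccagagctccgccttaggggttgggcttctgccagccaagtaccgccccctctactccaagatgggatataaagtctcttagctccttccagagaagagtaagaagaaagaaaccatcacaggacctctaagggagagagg
Prg3: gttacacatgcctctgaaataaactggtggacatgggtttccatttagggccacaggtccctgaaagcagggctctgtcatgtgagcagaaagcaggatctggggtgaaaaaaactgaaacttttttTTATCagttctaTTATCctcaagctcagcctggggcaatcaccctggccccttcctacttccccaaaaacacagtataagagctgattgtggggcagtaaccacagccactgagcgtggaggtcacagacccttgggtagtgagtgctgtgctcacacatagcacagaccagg
Ear1: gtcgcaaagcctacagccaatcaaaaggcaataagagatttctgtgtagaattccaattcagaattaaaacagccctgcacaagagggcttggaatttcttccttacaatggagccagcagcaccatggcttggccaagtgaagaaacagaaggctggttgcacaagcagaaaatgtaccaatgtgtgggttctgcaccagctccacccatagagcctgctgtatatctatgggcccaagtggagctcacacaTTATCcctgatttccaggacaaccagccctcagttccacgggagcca
Ear6: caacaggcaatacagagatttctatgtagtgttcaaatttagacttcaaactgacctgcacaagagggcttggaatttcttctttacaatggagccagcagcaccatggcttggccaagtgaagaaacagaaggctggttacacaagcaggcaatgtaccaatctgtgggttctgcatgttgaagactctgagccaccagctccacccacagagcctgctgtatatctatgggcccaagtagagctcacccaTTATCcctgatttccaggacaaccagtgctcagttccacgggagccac
Prg3 held the letters at positions -123 and -111 from the start, Ear1 at position 4 and Ear6 at position 3, and the Epx window did not hold them. Ear2 and Ear10 carried them at positions 7 and 2. A promoter was matched for 6 of the 7 granule genes. GATAA occurred in 16.7% of the 10049 windows of tested genes, in 14.6% of the 362 of genes that rose (3.55% of all tested genes) and in 20.9% of the 580 of genes that fell, which describes letters and not binding. The windows of Ear1 and Ear2 were 97.0% identical, and reads of these related ribonuclease genes may be split between copies, so each Ear value is uncertain.

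Of 12743 genes tested, 1176 (9.23%) passed a Benjamini-Hochberg adjusted p of 0.05 in edgeR's quasi-likelihood test, of which 723 were lower in stage IV (5.67%) and the others higher (3.55%). Among them 395 rises and 532 falls were at least 2-fold (log2 of 1), and 89 rises and 40 falls at least 16-fold (log2 of 4). The count of falls leaned on single libraries, with 329 falls and 390 rises called without stage IV replicate 2, and 471 and 314 without stage IV replicate 3. Where a named call was lost without 1 of the 6 libraries, that library is given beside it, with the highest adjusted p reached, and other named calls held without each of them. A library whose removal moved a printed fold by over 1.5 times is given too. Of the 130 calls named, 35 were lost without the 4 libraries numbered 3, 31 with limma-voom, 50 with the unassigned share of reads as covariate, 61 in the 12 steady state libraries alone and 74 in the 6 libraries alone. The fit of the 6 libraries was the single alternative to end the calls of Banf1, Ccnb2, Ccnd2, Cd55, Cd63, Cdk2, E2f2, Fcer1a, Gpi1, Hsp90b1, Itgb2, Mgst1, Msmo1, Rab3d and Tmpo. Such losses are given beside the other genes whose call held without each single library. With the replicate number as a block the rises numbered 740, and without the 4 steady state libraries numbered 3 there were 418 rises and 418 falls. Fitting the 6 libraries alone left 95 rises and 150 falls, of which 82 and 145 were among the genes called with all 24 libraries. Scaling by library totals gave 652 rises and 491 falls, with the median of all genes at 0.17 on the log2 scale against 0.02 under TMM.

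**Figure D1:**
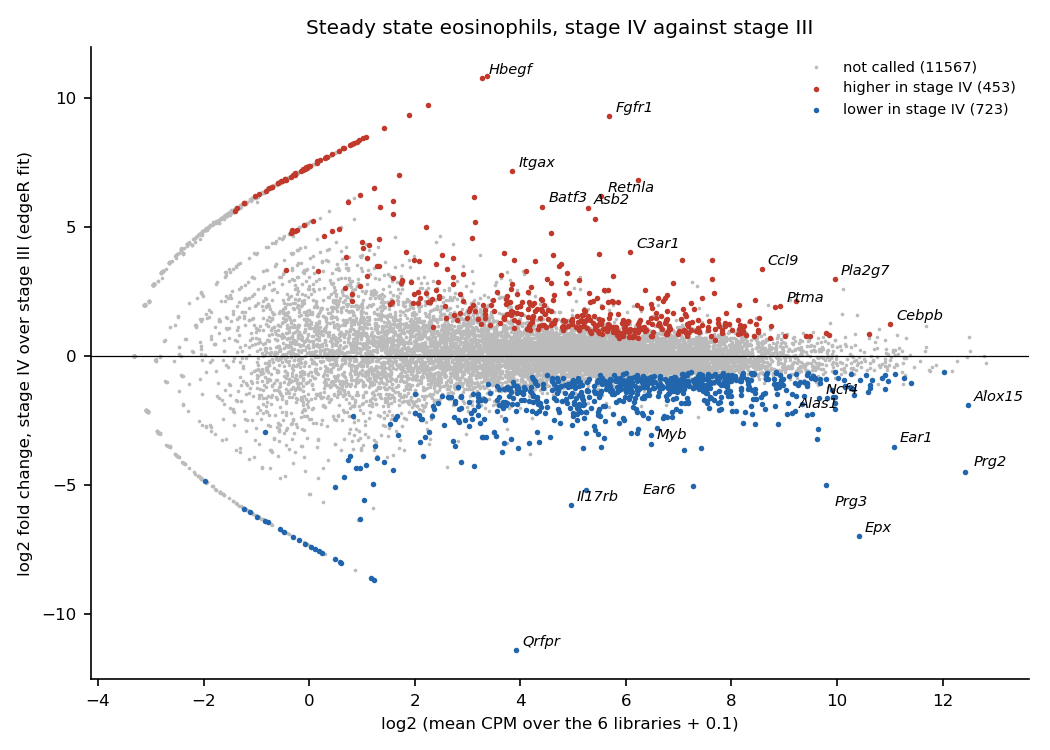
Each point is 1 of 12743 genes, with the mean level over the 6 steady state libraries (log2 of CPM plus 0.1) on the horizontal axis and the fitted log2 fold change of stage IV over stage III on the vertical axis. Red marks the genes called higher (3.55%) and blue the 723 called lower; Epx, Prg2, Prg3 and Ear1 lie at the lower right, at high levels, and Hbegf, Fgfr1 and Itgax at the top.

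Levels are given as CPM, counts relative to library sizes scaled by TMM (the trimmed mean of M values), in the order of replicates 1, 2 and 3. There were 9649974 to 11813397 gene counts per stage III library and 8378244 to 12471435 per stage IV library. At least 1 count was found for 11836 to 11925 genes per library in stage III and for 12160 to 12980 in stage IV. Reads assigned to no gene made up 18.8% to 22.5% of counted reads in stage III and 19.7%, 27.2% and 30.5% in stage IV replicates 1, 2 and 3. The stress-induced gene Atf3, chosen after its values were seen, stood at 33.6, 51.9 and 503 CPM in stage III against 40.9, 50.4 and 1063 CPM in stage IV. Replicate 3 was the highest library of both stages on this gene. Some eosinophil markers that were not called between the stages are given first. The eotaxin receptor gene Ccr3 stood at 562, 1025 and 394 CPM in stage III against 2243, 2156 and 1572 CPM in stage IV. The interleukin 5 receptor gene Il5ra was at 326, 316 and 353 CPM in stage III against 273, 246 and 216 CPM in stage IV. Adgre1, which encodes F4/80, stood at 1049, 821 and 649 CPM in stage III against 1285, 958 and 695 CPM in stage IV. The sort itself used an antibody to F4/80, so Adgre1 is no separate check of identity. All 10 eosinophil markers together summed to 24360 to 36450 CPM in stage III against 5304 to 8912 CPM in stage IV, where 6 of the 10 had fallen. Of the 8 genes of the sort markers, 1 was called, near the 9.23% of all tested genes. It was Cd55, whose protein was itself gated on, and it was lower in stage IV (log2 -1.33, SE 0.23, edgeR adjusted p = 0.00052).

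Markers of other cell types were also present, although Ly6G-bearing cells had been removed. The 5 primary granule genes of neutrophils summed to 158.8 to 439.9 CPM in stage III against 491 to 1014 CPM in stage IV, and 16 genes of later neutrophil stages to 20550 to 24980 CPM and 11110 to 27990 CPM. Within the primary list 1 gene was called higher, where 3.55% of all tested genes rose. This was Prtn3, a serine protease gene (29.8, 25.9 and 33.7 CPM in stage III against 139, 135 and 80.6 CPM in stage IV). All 5 fitted values of the list were positive. Among the 16 later genes Olfm4 alone was called and was lower, a share near the 5.67% of all tested genes that fell. Ngp, a neutrophil granule protein gene, stood at 10080, 7415 and 13360 CPM in stage III against 4420, 1315 and 6248 CPM in stage IV without passing the test (edgeR adjusted p = 0.14, and 0.00391 with the replicate number as a block). With the block, 3 of the 16 were called higher and 5 lower, where 740 and 1015 of all 12743 tested genes were. Monocyte and macrophage markers summed to 2084 to 2621 CPM in stage III against 1010 to 1195 CPM in stage IV. Most of the stage III sum was Ly6c2, given below. Of the 15 markers tested, 10 had positive and 5 negative fitted values (median log2 0.26). In this list 2 rose and 2 fell (3.55% and 5.67% of all tested genes did). All 4 haemoglobin genes, Cd3e, Thy1 and Cd8b1 were at 0 counts in the 6 libraries. B cell markers summed to at most 116.8 CPM, T and NK cell markers to at most 84.63 CPM, erythroid markers to at most 113.7 CPM and dendritic cell markers to at most 108.3 CPM in any of the 6. The part of other cells in the results below was not tested. In bulk libraries such as these, fewer cells of a type and less RNA per cell cannot be told apart.

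Among the 36 function lists the granule proteins had the largest share of falls. All 7 tested members fell. Their median log2 was -4.49 against 0.02 over all genes, and their summed level went from 13610 to 22650 CPM per stage III library to 399.3 to 1247 CPM per stage IV library. Epx, which encodes eosinophil peroxidase, stood at 3145, 1477 and 3485 CPM in stage III against 20.2, 18.6 and 26.5 CPM in stage IV. Every stage IV library lay below every stage III library (log2 -6.96, SE 0.34, edgeR adjusted p = 3.15e-12). Prg2, the gene of major basic protein, went from 12200, 7417 and 12130 CPM to 492, 234 and 687 CPM. Its relative Prg3 went from 1805, 870.2 and 2504 CPM to 46.7, 26.4 and 89.5 CPM. Stage IV replicate 2 was the lowest library for both, and the groups did not overlap (log2 -4.49, SE 0.31, edgeR adjusted p = 4.46e-09 for Prg2, and log2 -5.00 for Prg3). Ear1, an eosinophil-associated ribonuclease gene, stood at 4811, 3436 and 3645 CPM in stage III against 534, 111 and 402 CPM in stage IV, which made it 11.4-fold lower (log2 -3.51, SE 0.38, edgeR adjusted p = 2.19e-06). Its copies Ear2 and Ear6 had log2 fold changes of -3.65 and -5.02, and Ear10, a low gene chosen after its values were seen, -3.87. For Ear6 the log2 was -5.61 without stage IV replicate 3. For Ear10 the log2 was -5.43 without stage IV replicate 1 and -3.17 without stage IV replicate 2. The call of Ear10 was lost in the 6 libraries alone (adjusted p = 0.196), in the 12 steady state libraries alone (0.139) and with the block in the 6 libraries alone (0.156). In the same libraries Alas1, the gene of the first enzyme of heme synthesis, whose product peroxidase carries, went from 974, 629.8 and 1195 CPM to 241, 222 and 150.3 CPM (log2 -2.19, SE 0.23, edgeR adjusted p = 1.54e-06). It was the 1 gene of 13 in the heme list to be called, near the 5.67% of all tested genes that fell, while with the block 4 fell. The list as a whole had a median log2 of 0.015, with 7 positive and 6 negative fitted values.

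Some genes of the machinery that moves and fuses granules fell. Of 22 tested genes of vesicle fusion and exocytosis, 5 fell and 1 rose (5.67% and 3.55% of all tested genes did). Stx3, a syntaxin gene of granulocyte granule fusion, went from 821, 507 and 820.1 CPM to 153, 146 and 269 CPM, and the stages did not overlap (log2 -1.92, SE 0.24, edgeR adjusted p = 1.17e-05). Rab3d, a small GTPase gene of secretory granules, stood at 227, 256 and 180.1 CPM in stage III against 100.3, 117 and 68.2 CPM in stage IV, again without overlap (log2 -1.21, SE 0.23, edgeR adjusted p = 0.0016). The fusion factor gene Stxbp2 fell (log2 -0.66, edgeR adjusted p = 0.012), as did Rab37 (log2 -0.77, edgeR adjusted p = 0.0122). For Stxbp2 edgeR's adjusted p was up to 0.0736 without stage IV replicate 2 or 3. For Rab37 edgeR's adjusted p was up to 0.0581 without stage III replicate 3 or stage IV replicate 1. The endosomal syntaxin gene Stx7 fell (log2 -0.73, edgeR adjusted p = 0.0401) and Stx4a rose (log2 0.90, edgeR adjusted p = 0.0487), both chosen after their values were seen. For Stx7 edgeR's adjusted p was up to 0.245 without stage III replicate 1 or 3 or stage IV replicate 2 or 3. For Stx4a edgeR's adjusted p was up to 0.258 without stage III replicate 1, 2 or 3 or stage IV replicate 3. Without the libraries numbered 3 the list had 2 falls.

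Of 29 lysosomal and autophagy genes 8 were lower and 0 higher, with a median log2 of -0.39. Of all tested genes 5.67% were lower and 3.55% higher. In this list 12 were lower and 1 higher with the block, and 6 and 1 without the libraries numbered 3. The tetraspanin gene Cd63, whose protein sits in the membrane of granules and lysosomes, went from 2729, 1956 and 3502 CPM to 1125, 866 and 1350 CPM. Replicate 3 was the highest library of each stage and the stages did not overlap (log2 -1.29, SE 0.23, edgeR adjusted p = 0.000662). Lamp2, another lysosomal membrane gene, stood at 475, 352 and 416 CPM in stage III against 194, 142 and 164 CPM in stage IV (log2 -1.32, SE 0.22, edgeR adjusted p = 0.000512). Becn1, which starts autophagosome formation, also fell (log2 -1.04, edgeR adjusted p = 0.00311, and 0.109 without the 4 libraries numbered 3). The call of Becn1 was lost in the 6 libraries alone (adjusted p = 0.103) and with the unassigned share of reads as covariate (0.053). Falls in the list numbered 3 without stage IV replicate 2.

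Effector enzymes other than the granule proteins fell in part. In the list of 8 NADPH oxidase genes 3 fell (5.67% of all tested genes did), and 5 with the block. Ncf4, which encodes the p40phox subunit, stood at 1142, 911 and 1619 CPM in stage III against 463.9, 318 and 394 CPM in stage IV, and the lowest stage III library exceeded the highest stage IV library (log2 -1.64, SE 0.20, edgeR adjusted p = 1.17e-05). The proton channel gene Hvcn1 went from 262, 223 and 254 CPM to 139, 139.5 and 114 CPM (log2 -0.91, SE 0.19, edgeR adjusted p = 0.00412, and 0.0531 without the 4 libraries numbered 3). The call of Hvcn1 was lost in the 6 libraries alone (adjusted p = 0.1). Ncf1, the p47phox gene, overlapped between stages at 2934, 2821 and 1488 CPM in stage III against 1552, 1568 and 1196 CPM in stage IV (log2 -0.75, edgeR adjusted p = 0.041). For Ncf1 edgeR's adjusted p was up to 0.177 without stage III replicate 1 or 2 or stage IV replicate 1, 2 or 3. Cybb, the catalytic subunit, stood at 3284, 2868 and 3853 CPM in stage III against 1422, 1542 and 1695 CPM in stage IV and missed the threshold (log2 -1.10, edgeR adjusted p = 0.0526, and 0.00791 with the block). Alox15, the lipoxygenase gene of eosinophils, went from 11540, 8293 and 7100 CPM to 3451, 2428 and 1298 CPM (log2 -1.91, SE 0.29, edgeR adjusted p = 0.000144). Lta4h, which makes leukotriene B4, went from 2139, 1319 and 2235 CPM to 869, 564 and 574 CPM (log2 -1.50, SE 0.21, edgeR adjusted p = 4.38e-05). These 2 were the falls among 16 genes of lipid mediator synthesis. The single rise there was Pla2g7, the gene of a secreted phospholipase that degrades platelet-activating factor, at 132, 300.3 and 234 CPM in stage III against 1871, 1940 and 1469 CPM in stage IV. Its lowest stage IV library stood far above its highest stage III library (log2 2.99, SE 0.61, edgeR adjusted p = 0.00318).

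A pair of genes of the plasminogen activator system fell, both chosen after their values were seen. Serpinb2, an inhibitor gene, went from 1516, 1017 and 1635 CPM to 318, 114 and 155 CPM (log2 -2.83, edgeR adjusted p = 0.00813). For Serpinb2 edgeR's adjusted p was 0.0614 without stage IV replicate 2. Plaur, the urokinase receptor gene, stood at 639, 575 and 2202 CPM in stage III against 262, 131 and 316 CPM in stage IV, with stage III replicate 3 well above the other libraries (log2 -2.27, edgeR adjusted p = 0.0156). For Plaur the log2 was -1.36 without stage III replicate 3. For Plaur edgeR's adjusted p was up to 0.136 without stage III replicate 3 or stage IV replicate 2.

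**Figure D2:**
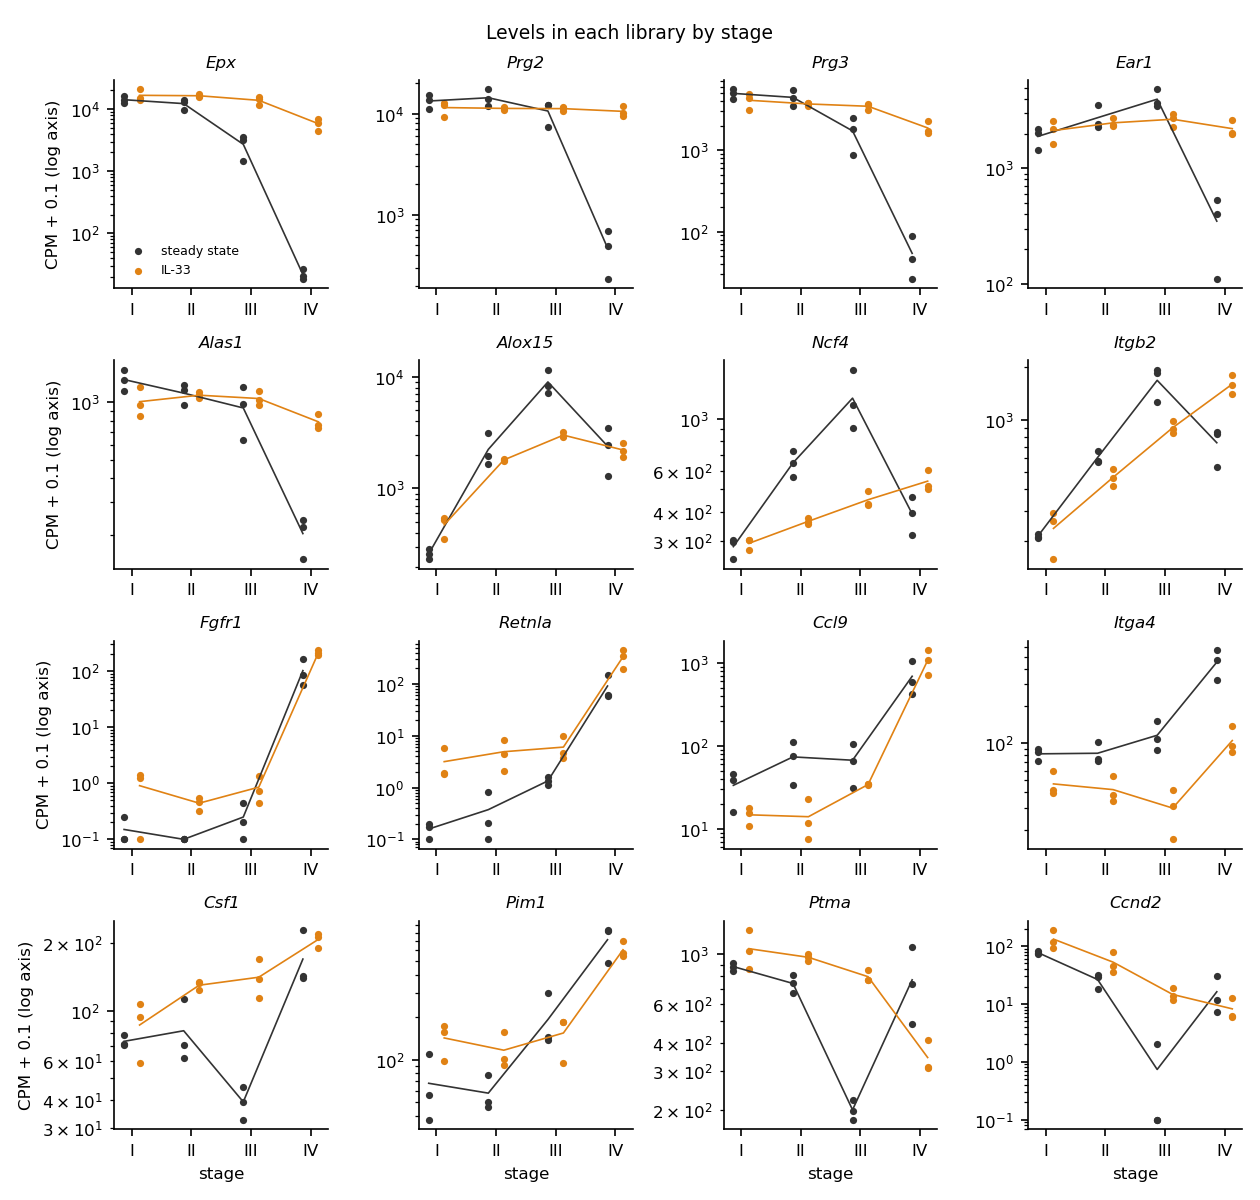
Levels of 16 genes in every library of the 4 stages on log axes (CPM plus 0.1), black for steady state and orange for IL-33, with lines through the means of the 3 libraries. Between stages III and IV the steady state points of the upper 8 genes drop and those of the lower 8 rise. By their steady state means, Csf1, Ptma and Ccnd2 are at their lowest and Ear1, Alox15, Ncf4 and Itgb2 at their highest in stage III.

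Glycolysis and the pentose phosphate pathway had 8 of 23 tested members lower and 0 higher (median log2 -0.53), against 5.67% and 3.55% of all tested genes. G6pdx, the gene of the enzyme that commits glucose to NADPH production, stood at 1142, 790.1 and 584 CPM in stage III against 355, 206 and 158 CPM in stage IV and did not overlap (log2 -1.80, SE 0.28, edgeR adjusted p = 0.000178). Tkt, the transketolase gene of the same pathway, went from 1587, 1309 and 1227 CPM to 604, 416 and 625 CPM (log2 -1.32, SE 0.18, edgeR adjusted p = 5.34e-05). Among glycolytic genes Hk3, a hexokinase gene, went from 409, 216 and 244 CPM to 103, 65.2 and 76 CPM (log2 -1.83, SE 0.32, edgeR adjusted p = 0.000645). Pgk1 also fell (log2 -1.56, edgeR adjusted p = 0.000104), as did Gpi1, chosen after its values were seen (log2 -1.40, edgeR adjusted p = 0.00222). Falls in the list numbered 5 without stage III replicate 1, 5 without stage IV replicate 2 and 5 without stage IV replicate 3. Of 25 subunit genes of oxidative phosphorylation 2 fell (5.67% of all tested genes did). Ndufs1 fell (log2 -0.83, edgeR adjusted p = 0.0154) and Ndufa9 fell (log2 -0.78, edgeR adjusted p = 0.0367). For Ndufs1 edgeR's adjusted p was up to 0.0836 without stage IV replicate 2 or 3. For Ndufa9 edgeR's adjusted p was up to 0.28 without stage III replicate 3 or stage IV replicate 1, 2 or 3. Without the libraries numbered 3 neither did.

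Genes of sterol synthesis fell in part. In the cholesterol list 8 of 20 members fell and 0 rose (5.67% and 3.55% of all tested genes did), with a median log2 of -1.20. With the block 13 fell, and in the 6 libraries alone 0. Msmo1, a sterol oxidase gene, stood at 110.0, 57.9 and 232 CPM in stage III against 22, 15.9 and 44.2 CPM in stage IV. Fdps, which makes farnesyl diphosphate, went from 89.8, 53.2 and 143 CPM to 27, 17.1 and 40.6 CPM. Replicate 3 was highest and replicate 2 lowest in each stage for both genes, and neither overlapped (log2 -2.29, SE 0.42, edgeR adjusted p = 0.0012 for Msmo1, and log2 -1.76 for Fdps). For Msmo1 the log2 was -1.62 without stage III replicate 3. The call of Fdps was lost in the 6 libraries alone (adjusted p = 0.0726) and with the unassigned share of reads as covariate (0.0612). Falls in the list numbered 5 without stage III replicate 1, 4 without stage III replicate 3 and 2 without stage IV replicate 2. Of 15 genes of sterol regulation and uptake 1 fell and 1 rose (3 and 1 with the block). Srebf2, the master regulator gene of the pathway, fell (log2 -1.24, edgeR adjusted p = 0.0355). For Srebf2 edgeR's adjusted p was up to 0.176 without stage III replicate 1 or 2 or stage IV replicate 2 or 3. Scap, which escorts its product, rose from 78.4, 63.6 and 32.6 CPM to 174, 119.8 and 126 CPM (log2 1.27, SE 0.30, edgeR adjusted p = 0.00899). The call of Scap was lost in the 6 libraries alone (adjusted p = 0.0984) and in the 12 steady state libraries alone (0.071). Of 13 fatty acid synthesis genes edgeR called 0 (3 had an unadjusted p under 0.05), DESeq2 called 1, and 1 fell with the block. In the endoplasmic reticulum list 4 of 28 fell (5.67% of all tested genes did), 7 with the block and 1 without the libraries numbered 3. The chaperone gene Hsp90b1 went from 999.7, 679.7 and 1185 CPM to 429, 364 and 500.0 CPM (log2 -1.15, SE 0.19, edgeR adjusted p = 0.000513). The others were Spcs3 (log2 -1.34, edgeR adjusted p = 0.0012, and 0.0555 without the 4 libraries numbered 3), Pdia3 and Dnajb11. The call of Spcs3 was lost in the 6 libraries alone (adjusted p = 0.0645). The disulfide isomerase gene Pdia3 had a log2 of -0.97 (edgeR adjusted p = 0.0095), and the co-chaperone gene Dnajb11 of -0.97 (edgeR adjusted p = 0.0216). For Pdia3 edgeR's adjusted p was up to 0.0832 without stage IV replicate 2 or 3. For Dnajb11 edgeR's adjusted p was up to 0.112 without stage III replicate 1 or 3 or stage IV replicate 2 or 3.

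Genes of the actin cytoskeleton had 8 of 32 members lower and 1 higher, against 5.67% and 3.55% of all tested genes. Yet falls numbered 4 without stage III replicate 1, 5 without stage III replicate 2 and 5 without stage III replicate 3. They numbered 0 without stage IV replicate 2, 3 without stage IV replicate 3 and 2 without the libraries numbered 3. Gsn, which severs actin filaments, went from 1949, 1703 and 1732 CPM to 1031, 727 and 456.4 CPM (log2 -1.28, edgeR adjusted p = 0.0092). For Gsn edgeR's adjusted p was up to 0.0553 without stage IV replicate 2 or 3. Arpc5, a subunit gene of the complex that branches actin, went from 3019, 2959 and 3619 CPM to 2092, 1562 and 1607 CPM (log2 -0.87, edgeR adjusted p = 0.00322). For Arpc5 edgeR's adjusted p was 0.057 without stage IV replicate 2. The rise was Wipf1, chosen after its values were seen (log2 0.63, edgeR adjusted p = 0.0374). For Wipf1 edgeR's adjusted p was up to 0.181 without stage III replicate 1, 2 or 3 or stage IV replicate 3.

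Integrin genes changed in both directions, with 3 of 24 genes of adhesion higher and 3 lower (3.55% and 5.67% of all tested genes were). Itgb2, the common chain of the leukocyte integrins, stood at 1940, 1861 and 1258 CPM in stage III against 849, 825 and 538 CPM in stage IV and fell (log2 -1.19, SE 0.23, edgeR adjusted p = 0.00161). Itga2b, best known from platelets, went from 212, 186 and 156 CPM to 36.2, 32.7 and 37.6 CPM (log2 -2.38, SE 0.28, edgeR adjusted p = 7.26e-06). Cd47, chosen after its values were seen, also fell (log2 -0.60, edgeR adjusted p = 0.0333). For Cd47 edgeR's adjusted p was up to 0.253 without stage III replicate 1 or 3 or stage IV replicate 2 or 3. Itga4, a chain of the integrin that binds VCAM-1, rose from 88.4, 152 and 107 CPM to 321, 566 and 468 CPM, with replicate 2 highest in each stage (log2 1.96, SE 0.32, edgeR adjusted p = 0.000305). Itgax, which encodes CD11c, was near the floor in stage III and rose, at 0.243, 0 and 0.318 CPM in stage III against 21.6, 39.3 and 24.3 CPM in stage IV (log2 7.16, SE 1.68, edgeR adjusted p = 0.00981). For Itgax the log2 was 7.77 without stage III replicate 3. The call of Itgax was lost in the 12 steady state libraries alone (adjusted p = 0.0665). Itga2 went from 3.64, 10.3 and 1.27 CPM to 33, 39.4 and 48.7 CPM (log2 2.99, edgeR adjusted p = 0.014). For Itga2 the log2 was 4.04 without stage III replicate 2. For Itga2 edgeR's adjusted p was up to 0.0597 without stage III replicate 1 or 3.

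Receptor genes changed in both directions. Of 28 eosinophil surface receptor genes 2 rose and 4 fell (2 falls without the libraries numbered 3). Of 22 chemoattractant receptor genes 2 rose and 2 fell, with 4 falls under the block. Of all tested genes 3.55% rose and 5.67% fell. Il17rb, a chain of the receptor for interleukin 25, went from 79.9, 39.4 and 62.6 CPM to 1.48, 1.02 and 0.686 CPM, a 55.2-fold fall in which the highest stage IV library stood far below the lowest of stage III (log2 -5.79, SE 0.45, edgeR adjusted p = 2.11e-08). Qrfpr, a peptide receptor gene, had 818 reads over the 3 stage III libraries (10.9, 28 and 51.2 CPM) and 0 in stage IV, so it was at least 306-fold lower against a floor of 3 reads over the group (edgeR adjusted p = 0.000128). Hrh2, a histamine receptor gene chosen after its values were seen, went from 24.6, 11.8 and 33.5 CPM to 1.39, 3.6 and 1.65 CPM (log2 -3.39, edgeR adjusted p = 0.0139). For Hrh2 edgeR's adjusted p was 0.0571 without stage IV replicate 3. Ccr1, a receptor gene for inflammatory chemokines, stood at 670.2, 730.0 and 337 CPM in stage III against 255, 265 and 124 CPM in stage IV, and replicate 3 was lowest in each stage (log2 -1.43, SE 0.31, edgeR adjusted p = 0.00433). The call of Ccr1 was lost in the 6 libraries alone (adjusted p = 0.091) and in the 12 steady state libraries alone (0.0613). Ltb4r1, the leukotriene B4 receptor gene, went from 701, 769.7 and 502 CPM to 443.5, 333 and 203 CPM (log2 -1.01, edgeR adjusted p = 0.0102). For Ltb4r1 edgeR's adjusted p was up to 0.0607 without stage IV replicate 2 or 3. The Fc receptor gene Fcgr3 fell (log2 -0.84, edgeR adjusted p = 0.0147), and so did Fcgr2b (log2 -0.64, edgeR adjusted p = 0.0281). For Fcgr3 edgeR's adjusted p was up to 0.143 without stage III replicate 3 or stage IV replicate 2. For Fcgr2b edgeR's adjusted p was up to 0.184 without stage III replicate 3 or stage IV replicate 2 or 3. The inhibitory lectin gene Clec12a fell as well (log2 -0.70, edgeR adjusted p = 0.0168). For Clec12a edgeR's adjusted p was up to 0.201 without stage III replicate 3 or stage IV replicate 2.

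C3ar1, which binds the anaphylatoxin C3a, rose, at 7.77, 11.3 and 4.35 CPM in stage III against 165, 149.5 and 67.5 CPM in stage IV. The stages did not overlap, and replicate 3 was the lowest library of each (log2 4.03, SE 0.76, edgeR adjusted p = 0.00161). The call of C3ar1 was lost in the 12 steady state libraries alone (adjusted p = 0.0638). Ptgdr2, the prostaglandin D2 receptor gene, had no read in any stage III library and 108 over stage IV, all in replicates 1 and 2, and was at least 32.1-fold higher against the same floor (edgeR adjusted p = 0.0402, and 0.0565 with the block). For Ptgdr2 edgeR's adjusted p was up to 0.106 without stage III replicate 1, 2 or 3 or stage IV replicate 1 or 2. Il1rl1, the IL-33 receptor gene, chosen after its values were seen, went from 61, 31.1 and 38.9 CPM to 102, 83.5 and 85.7 CPM (log2 1.05, edgeR adjusted p = 0.0396). For Il1rl1 edgeR's adjusted p was up to 0.14 without stage III replicate 2 or 3 or stage IV replicate 1 or 3. For Ccr3, whose values stand above, the stages did not overlap, but the rise missed the threshold (log2 1.59, edgeR adjusted p = 0.0754, and 0.0345 with the block).

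Of 31 chemokine, cytokine and growth factor genes edgeR called 5 higher and 0 lower (background of rises 3.55%), with a median log2 of 0.80, and DESeq2 called 6 higher and 0 lower, while with the block 10 rose and 1 fell and without the libraries numbered 3, 4 and 1. Ccl9, a CC chemokine gene, stood at 30.6, 106 and 65.3 CPM in stage III against 427, 1055 and 594 CPM in stage IV, with replicate 2 highest in each stage (log2 3.36, SE 0.52, edgeR adjusted p = 0.00017). Csf1, the gene of macrophage colony-stimulating factor, went from 32.7, 39.3 and 45.6 CPM to 142, 139 and 228 CPM and its lowest stage IV library was above its highest stage III library (log2 2.12, SE 0.27, edgeR adjusted p = 1.43e-05). Retnla, which encodes the secreted protein RELM-alpha, went from 1.21, 1.03 and 1.49 CPM to 61.7, 152 and 59.2 CPM (log2 6.18, SE 0.70, edgeR adjusted p = 4.37e-06). Hbegf, an epidermal growth factor family gene, had 0 reads in stage III and 578 in stage IV (17, 24.9 and 15.5 CPM), at least 172-fold more (edgeR adjusted p = 0.000548). Il4, the type 2 cytokine gene, went from 258, 242 and 229.7 CPM to 498, 443.9 and 509.8 CPM, with no overlap (log2 0.99, SE 0.24, edgeR adjusted p = 0.0122, and 0.0585 without the 4 libraries numbered 3). The call of Il4 was lost in the 6 libraries alone (adjusted p = 0.0675) and with the unassigned share of reads as covariate (0.0507).

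Genes low until stage IV formed a small set. In all, 15 genes called higher averaged at least 20 CPM in stage IV and under 5 CPM in stages I, II and III. Fgfr1, the gene of a fibroblast growth factor receptor (chromosome 8, 25513654 to 25575718, on the plus strand of mm10), stood at 0, 0.343 and 0.106 CPM in stage III against 56, 165 and 85.8 CPM in stage IV. It was near 0 in every stage III library and clearly present in every stage IV library (log2 9.30, SE 0.89, edgeR adjusted p = 1.01e-06). For Fgfr1 the log2 was 10.56 without stage III replicate 2. Asb2, a ubiquitin ligase adaptor gene, went from 1.94, 0.915 and 1.38 CPM to 61.3, 123 and 42.6 CPM (log2 5.74, SE 0.62, edgeR adjusted p = 4.12e-06). Hes1, a target gene of Notch signalling, went from 0.486, 2.17 and 3.61 CPM to 28.6, 37 and 184 CPM, with stage IV replicate 3 highest (log2 5.29, SE 1.18, edgeR adjusted p = 0.00569). For Hes1 the log2 was 5.94 without stage III replicate 3 and 3.96 without stage IV replicate 3. The call of Hes1 was lost in the 12 steady state libraries alone (adjusted p = 0.0654) and with the unassigned share of reads as covariate (0.0698). Of these 15 genes, 7 also averaged at least 20 CPM in stage IV under IL-33. A set of falls was defined on stages III and IV alone, at least 20 CPM in stage III and under 5 CPM in stage IV. It held 15 genes, among them Qrfpr, Il17rb, Nxnl2 (83.9, 43.7 and 91.8 CPM in stage III) and Angptl8 (25.1, 15.8 and 28.7 CPM in stage III).

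Of 36 transcription factor genes of the blood lineages 6 rose and 2 fell, against 10 and 3 with the block. Of all tested genes 3.55% rose and 5.67% fell, so the falls of this list were near that share. Batf3, a basic leucine zipper factor gene, stood at 0.971, 0 and 1.27 CPM in stage III against 27.2, 44.9 and 53.5 CPM in stage IV (log2 5.78, SE 1.12, edgeR adjusted p = 0.00191). For Batf3 the log2 was 6.41 without stage III replicate 3. Cebpb, a factor gene of mature myeloid cells, was already high and went from 767, 1986 and 900.5 CPM to 2607, 3296 and 2791 CPM (log2 1.25, edgeR adjusted p = 0.0134). For Cebpb edgeR's adjusted p was up to 0.0774 without stage III replicate 1 or 3. Runx1 went from 20.4, 14.8 and 20.4 CPM to 54.6, 33.5 and 34.7 CPM (log2 1.15, SE 0.23, edgeR adjusted p = 0.00299). The call of Runx1 was lost with limma-voom (adjusted p = 0.0712), in the 6 libraries alone (0.133), in the 12 steady state libraries alone (0.0538) and with the block in the 6 libraries alone (0.0593). Zeb2 rose (log2 1.44, edgeR adjusted p = 0.0223), and so did Rara, a retinoic acid receptor gene (log2 1.46, edgeR adjusted p = 0.0484), both chosen after their values were seen. For Zeb2 edgeR's adjusted p was up to 0.11 without stage III replicate 1 or 3 or stage IV replicate 3. For Rara the log2 was 2.25 without stage III replicate 2. For Rara edgeR's adjusted p was up to 0.167 without stage III replicate 1 or 3 or stage IV replicate 1 or 2. Rises in the list numbered 3 without stage III replicate 1 and 3 without stage III replicate 3. Ets1 fell from 197, 134 and 195 CPM to 41.1, 32.2 and 30.3 CPM (log2 -2.34, SE 0.32, edgeR adjusted p = 4.38e-05). Gata2, chosen after its values were seen, fell from 30.5, 12.9 and 21.5 CPM to 9.98, 6.84 and 9.6 CPM (log2 -1.30, edgeR adjusted p = 0.0241). For Gata2 edgeR's adjusted p was up to 0.137 without stage III replicate 1 or stage IV replicate 2 or 3.

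Of 8 stem and progenitor cell markers 2 rose and 1 fell (3.55% and 5.67% of all tested genes did). Myb, which sustains immature haematopoietic cells, stood at 207, 108 and 168 CPM in stage III against 21.7, 9.89 and 14.4 CPM in stage IV, 10.5-fold lower (log2 -3.39, SE 0.29, edgeR adjusted p = 7.10e-08). Meis1, a homeobox gene of progenitors, rose from 21.4, 26.3 and 18 CPM to 83.1, 113 and 82.2 CPM (log2 2.08, SE 0.44, edgeR adjusted p = 0.00401). Hoxa9, another homeobox gene, rose from 0 reads to 25, at least 7.43-fold. The call of Hoxa9 was lost with limma-voom (adjusted p = 0.0806) and in the 12 steady state libraries alone (0.0783). Outside that list, Gfi1, a repressor gene of granulocyte precursors chosen after its values were seen, went from 62.3, 46 and 29.7 CPM to 9.12, 8.69 and 4.94 CPM (log2 -2.59, SE 0.36, edgeR adjusted p = 5.91e-05).

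Cytokine signalling and survival genes rose in part. Among 18 targets and feedback genes of the JAK-STAT5 pathway, which interleukin 5 uses, 3 rose and 1 fell. Of all tested genes 3.55% rose and 5.67% fell. The kinase gene Pim1 went from 144, 296 and 138 CPM to 485, 821 and 830.3 CPM (log2 1.89, SE 0.38, edgeR adjusted p = 0.00297). Its relative Pim3 went from 51.6, 77.5 and 62.8 CPM to 186, 285 and 560.0 CPM (log2 2.42, SE 0.37, edgeR adjusted p = 0.000143). Socs1, a feedback inhibitor gene, rose by log2 1.73 (edgeR adjusted p = 0.0149). For Socs1 edgeR's adjusted p was up to 0.0597 without stage III replicate 2 or stage IV replicate 1. Pim2 fell from 80, 18.9 and 50.3 CPM to 17.9, 13.9 and 11.5 CPM (log2 -1.78, SE 0.36, edgeR adjusted p = 0.00276). The call of Pim2 was lost with limma-voom (adjusted p = 0.0692), in the 6 libraries alone (0.1), in the 12 steady state libraries alone (0.0599) and with the unassigned share of reads as covariate (0.0764). In the Bcl2 family 2 of 16 rose, 4 with the block, and 1 fell. Bcl2a1b, an anti-apoptotic gene with near-identical copies, went from 3.04, 8.35 and 1.8 CPM to 61.7, 62.1 and 22.6 CPM (log2 3.48, SE 0.58, edgeR adjusted p = 0.00047). For Bcl2a1b the log2 was 4.34 without stage III replicate 2. Its copy Bcl2a1a had a log2 of 2.92 (edgeR adjusted p = 0.0391). For Bcl2a1a the log2 was 4.04 without stage III replicate 2, 2.31 without stage III replicate 3 and 2.31 without stage IV replicate 1. For Bcl2a1a edgeR's adjusted p was up to 0.126 without stage III replicate 1 or 3 or stage IV replicate 1 or 2. Bcl2 itself overlapped between stages, at 22.3, 16.2 and 4.45 CPM in stage III against 3.65, 1.2 and 6.58 CPM in stage IV (log2 -1.94, edgeR adjusted p = 0.00979). For Bcl2 the log2 was -2.55 without stage IV replicate 3. For Bcl2 edgeR's adjusted p was up to 0.0701 without stage III replicate 1 or stage IV replicate 2.

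Cell cycle genes did not move as 1 group in steady state. The proliferation marker Mki67 stood at 41.9, 77.2 and 62.6 CPM in stage III against 55.3, 80.6 and 117 CPM in stage IV and overlapped (log2 0.48, edgeR adjusted p = 0.304). Of 26 S phase genes, the thymidine kinase gene Tk1 rose (log2 1.02, edgeR adjusted p = 0.0247), as did Gins1 (log2 1.12, edgeR adjusted p = 0.0451, and 0.0511 with the block). For Tk1 edgeR's adjusted p was up to 0.125 without stage III replicate 1 or 3 or stage IV replicate 1 or 3. For Gins1 edgeR's adjusted p was up to 0.204 without stage III replicate 1, 2 or 3 or stage IV replicate 2 or 3. Of 28 genes of G2 and mitosis 5 fell and 1 rose (5.67% and 3.55% of all tested genes did), 3 and 0 without the libraries numbered 3. The cyclin gene Ccnb2 was at 103, 55.6 and 119.6 CPM in stage III against 43.3, 30.5 and 31.8 CPM in stage IV (log2 -1.39, SE 0.25, edgeR adjusted p = 0.00102), and Anln fell too (log2 -1.71, edgeR adjusted p = 0.00956). For Anln the log2 was -2.47 without stage IV replicate 1. The call of Anln was lost in the 6 libraries alone (adjusted p = 0.217), in the 12 steady state libraries alone (0.0909), with the block in the 6 libraries alone (0.0984) and with the unassigned share of reads as covariate (0.0543). Cdc20 fell (log2 -1.44, edgeR adjusted p = 0.0253), as did Cenpe (log2 -1.60, edgeR adjusted p = 0.0288). For Cdc20 the log2 was -2.02 without stage IV replicate 1. For Cdc20 edgeR's adjusted p was up to 0.153 without stage III replicate 1 or stage IV replicate 2 or 3. For Cenpe edgeR's adjusted p was up to 0.168 without stage III replicate 1 or 2 or stage IV replicate 2. Plk1 fell (log2 -1.27, edgeR adjusted p = 0.0394) and Kif23 rose (log2 1.15, edgeR adjusted p = 0.03), both chosen after their values were seen. For Plk1 the log2 was -2.0 without stage IV replicate 1. For Plk1 edgeR's adjusted p was up to 0.184 without stage III replicate 1 or 2 or stage IV replicate 2 or 3. For Kif23 edgeR's adjusted p was up to 0.185 without stage III replicate 3 or stage IV replicate 3. Of 22 genes of G1 control 2 rose and 4 fell, 4 and 6 with the block. Ccnd2, the cyclin D2 gene, was at 0, 0 and 1.91 CPM in stage III against 11.5, 29.8 and 7.13 CPM in stage IV and rose (log2 4.58, SE 0.77, edgeR adjusted p = 0.00047). For Ccnd2 the log2 was 10.51 without stage III replicate 3 and 3.90 without stage IV replicate 2. The inhibitor gene Cdkn1a went from 34.5, 26.4 and 57 CPM to 85.3, 149 and 190.5 CPM (log2 1.85, edgeR adjusted p = 0.0164). For Cdkn1a edgeR's adjusted p was up to 0.0716 without stage III replicate 1 or 2 or stage IV replicate 3. Cdk2 went from 237, 175 and 241 CPM to 127, 67.9 and 84.5 CPM (log2 -1.23, SE 0.21, edgeR adjusted p = 0.000645). The other falls were E2f2 (log2 -1.62) and, chosen after their values were seen, Ccnd3 (log2 -1.24, edgeR adjusted p = 0.0391) and Mxd1 (log2 -1.58, edgeR adjusted p = 0.0205). For Ccnd3 edgeR's adjusted p was up to 0.269 without stage III replicate 1 or stage IV replicate 2 or 3. For Mxd1 edgeR's adjusted p was up to 0.0905 without stage IV replicate 1 or 2.

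Some genes of growth and of the nucleus rose. Ptma, which encodes the nuclear protein prothymosin alpha, stood at 198, 180.3 and 220.3 CPM in stage III against 484, 735 and 1085 CPM in stage IV without overlap (log2 1.94, SE 0.23, edgeR adjusted p = 6.95e-06). Of 25 ribosome biogenesis genes 3 rose (3.55% of all tested genes did), 6 with the block and 7 without the libraries numbered 3, and 1 fell. Mybbp1a, a nucleolar factor gene, went from 11.2, 4.46 and 7.85 CPM to 25.7, 29.9 and 26.6 CPM (log2 1.81, SE 0.37, edgeR adjusted p = 0.00318). The call of Mybbp1a was lost with limma-voom (adjusted p = 0.0566) and in the 6 libraries alone (0.0732). Nop58 rose (log2 1.35, edgeR adjusted p = 0.0396). For Nop58 edgeR's adjusted p was up to 0.222 without stage III replicate 1 or 2 or stage IV replicate 2 or 3. Of subunit genes of RNA polymerase I, Polr1b rose from 0, 0 and 0.53 CPM to 1.82, 3.23 and 0.549 CPM (log2 3.28, edgeR adjusted p = 0.0245) and Polr1a fell (log2 -1.19, edgeR adjusted p = 0.0294). For Polr1b the log2 was 7.44 without stage III replicate 3. For Polr1b edgeR's adjusted p was up to 0.101 without stage III replicate 1 or 2 or stage IV replicate 2. For Polr1a edgeR's adjusted p was up to 0.126 without stage III replicate 2 or stage IV replicate 1, 2 or 3. All 28 cytosolic ribosomal protein genes had positive fitted values, with a median log2 of 0.63, but 1 was called, Rps24 (log2 1.11, edgeR adjusted p = 0.0405). For Rps24 edgeR's adjusted p was up to 0.292 without stage III replicate 1 or 3 or stage IV replicate 3. In the list of 13 nuclear envelope genes 2 rose. Tmpo, a lamina-associated protein gene, went from 137, 127 and 54.9 CPM to 264, 222 and 242 CPM (log2 1.19, SE 0.26, edgeR adjusted p = 0.00506), and Banf1 went from 122, 102 and 123 CPM to 205, 229 and 226 CPM (log2 0.93, SE 0.22, edgeR adjusted p = 0.00992). Outside the lists, Stk19 went from 39, 46.3 and 48.8 CPM to 254, 327 and 473 CPM (log2 2.97, SE 0.26, edgeR adjusted p = 1.41e-07). Fam3c went from 4.98, 6.75 and 6.79 CPM to 24.8, 29 and 25 CPM (log2 2.09, SE 0.24, edgeR adjusted p = 5.43e-06).

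**Figure D3:**
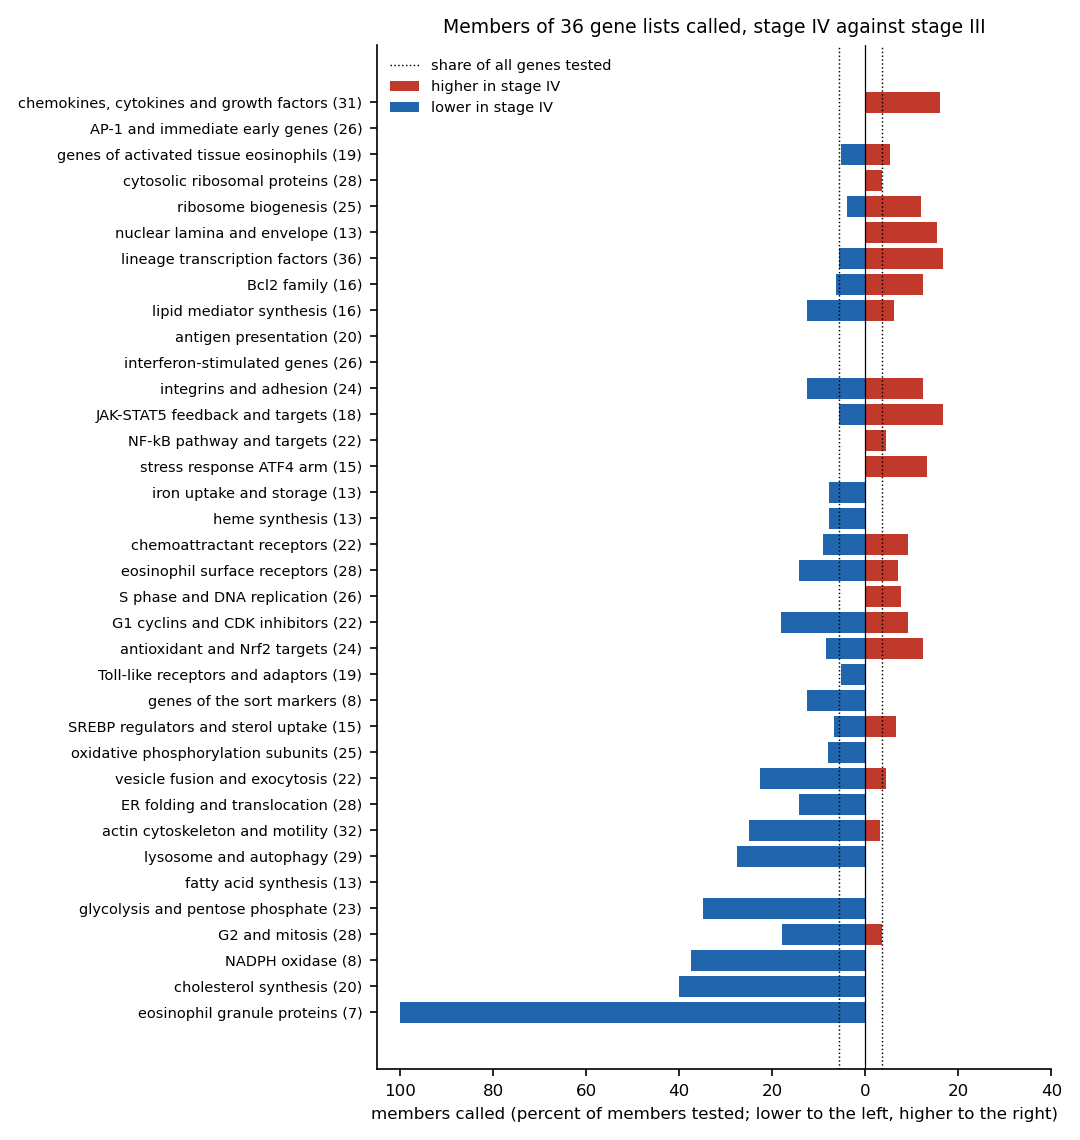
Percent of tested members of 36 gene lists called lower (blue, to the left) or higher (red, to the right) in stage IV against stage III, with the number tested in parentheses, ordered by the median log2 fold change; dotted lines mark the shares over all genes, 3.55% higher and 5.67% lower. The granule list reaches 100% lower at the bottom, and chemokines, cytokines and growth factors are at the top.

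Of 24 antioxidant genes 3 rose and 2 fell, against 4 and 5 with the block and 0 and 3 without the libraries numbered 3. Of all tested genes 3.55% rose and 5.67% fell. The single calls of the NF-kB, iron and Toll-like receptor lists below were near these shares. Mgst1, a microsomal glutathione transferase gene, went from 944, 784 and 1232 CPM to 374, 198 and 447.4 CPM (log2 -1.54, SE 0.26, edgeR adjusted p = 0.000478), and Nfe2l2, the Nrf2 gene, also fell (log2 -0.86, edgeR adjusted p = 0.0095). For Nfe2l2 edgeR's adjusted p was 0.0799 without stage IV replicate 2. The rises were Gpx4 (log2 0.76, edgeR adjusted p = 0.0344), Mgst2 (log2 1.59, edgeR adjusted p = 0.014) and Sod1, chosen after its values were seen (log2 1.40, edgeR adjusted p = 0.0387). For Gpx4 edgeR's adjusted p was up to 0.127 without stage III replicate 1 or 3 or stage IV replicate 1 or 3. For Mgst2 edgeR's adjusted p was up to 0.0967 without stage III replicate 1 or stage IV replicate 3. For Sod1 the log2 was 0.67 without stage IV replicate 3. For Sod1 edgeR's adjusted p was up to 0.355 without stage III replicate 1, 2 or 3 or stage IV replicate 3. In the ATF4 stress list of 15, Cebpb and Chac1 rose, the latter with no read in stage III and 4.25, 0.924 and 0 CPM in stage IV, where replicate 3 overlapped with stage III (edgeR adjusted p = 0.0373, and 0.0514 with the block). For Chac1 edgeR's adjusted p was up to 0.13 without stage III replicate 1, 2 or 3 or stage IV replicate 1. Tnfaip2 rose among 22 NF-kB genes (log2 2.05, edgeR adjusted p = 0.0356). For Tnfaip2 edgeR's adjusted p was up to 0.139 without stage III replicate 2 or 3 or stage IV replicate 2 or 3. Ncoa4, a ferritin receptor gene, fell among 13 iron genes (log2 -1.14, edgeR adjusted p = 0.0186). For Ncoa4 edgeR's adjusted p was up to 0.102 without stage III replicate 1 or stage IV replicate 2 or 3. Nod1, which does not encode a Toll-like receptor, fell in the list of 19 genes named for Toll-like receptors and adaptors (log2 -1.0, edgeR adjusted p = 0.0193). For Nod1 edgeR's adjusted p was up to 0.156 without stage III replicate 1 or 3 or stage IV replicate 1 or 2. Among 19 genes reported for activated tissue eosinophils Itgax rose and Cd63 fell. edgeR called 0 of 26 AP-1 and immediate early genes (5 had an unadjusted p under 0.05), where DESeq2 called 2 and 5 rose with the block. It called 0 of 26 interferon-stimulated genes (4 unadjusted, 1 by DESeq2, 1 higher with the block) and 0 of 20 antigen presentation genes (3 unadjusted, 2 by DESeq2, 1 higher and 1 lower with the block).

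Among markers of other lineages 5 of 11 were called for basophils and mast cells and 4 of 15 for monocytes and macrophages, against 9.23% of all genes. Ly6c2, which encodes Ly6C of monocytes and other myeloid cells, stood at 1940, 1553 and 1330 CPM in stage III against 421, 292 and 444.1 CPM in stage IV and fell without overlap (log2 -2.06, SE 0.21, edgeR adjusted p = 1.10e-06). Of 15 monocyte and macrophage markers, Vcam1 fell (log2 -2.16, edgeR adjusted p = 0.00813) beside it. For Vcam1 the log2 was -2.93 without stage IV replicate 1. For Vcam1 edgeR's adjusted p was 0.0549 without stage IV replicate 2. Among those that rose, Cd5l stood at 0, 0.114 and 0 CPM in stage III against 10.8, 1.29 and 1.37 CPM in stage IV, with most of its reads in stage IV replicate 1 (edgeR adjusted p = 0.0459). For Cd5l edgeR's adjusted p was up to 0.147 without stage III replicate 1, 2 or 3 or stage IV replicate 1, 2 or 3. Among 11 basophil and mast cell genes, Hdc, the gene of the enzyme that makes histamine, went from 587, 512 and 394 CPM to 121, 89 and 123 CPM (log2 -2.17, SE 0.26, edgeR adjusted p = 7.26e-06). Fcer1a, a chain of the high-affinity IgE receptor, went from 63.9, 59.7 and 92.3 CPM to 22.8, 6.19 and 22.6 CPM (log2 -2.07, SE 0.39, edgeR adjusted p = 0.00165). Gata2 fell and Il4 and Itga2 rose. Olfm4 went from 269, 185 and 499 CPM to 20.3, 7.48 and 54.3 CPM (log2 -3.55, SE 0.64, edgeR adjusted p = 0.00108). For Olfm4 the log2 was -4.51 without stage IV replicate 3. Elane, of the primary granules, stood at 101, 59.5 and 117 CPM in stage III against 409, 266 and 162 CPM in stage IV (log2 1.59, edgeR adjusted p = 0.0914). Cd79b fell among 8 B cell genes (log2 -1.62, edgeR adjusted p = 0.0173), and Itga2b among 5 megakaryocyte genes. For Cd79b the log2 was -2.35 without stage IV replicate 3. For Cd79b edgeR's adjusted p was up to 0.123 without stage III replicate 3 or stage IV replicate 1 or 2. edgeR called 0 of 11 dendritic cell genes (2 unadjusted, 1 by DESeq2). It also called 0 of 4 T and NK cell, 6 erythroid and 2 stromal genes, as did DESeq2, with 2, 0 and 0 under an unadjusted p of 0.05.

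Whether the terminal step differed between conditions was tested as the steady state step minus the IL-33 step, in 1 fit in which the steps share no library. The difference was called for 2388 genes (18.7%), 1313 with the steady state change more positive (10.3%) and 1075 with it more negative (8.44%); under library totals these were 1904 and 539, and without stage IV replicate 2 the latter was 702. For the genes that rose in steady state, the median log2 was 1.73 in steady state and 0.54 under IL-33, where 282 had the same sign. For the 723 that fell, the medians were -1.30 and -0.20 (the rises and falls were chosen on the steady state values, which enlarges these), and 429 had the same sign. The share of same signs over all tested genes is not given here, so the counts of signs describe the called genes only.

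**Figure D4:**
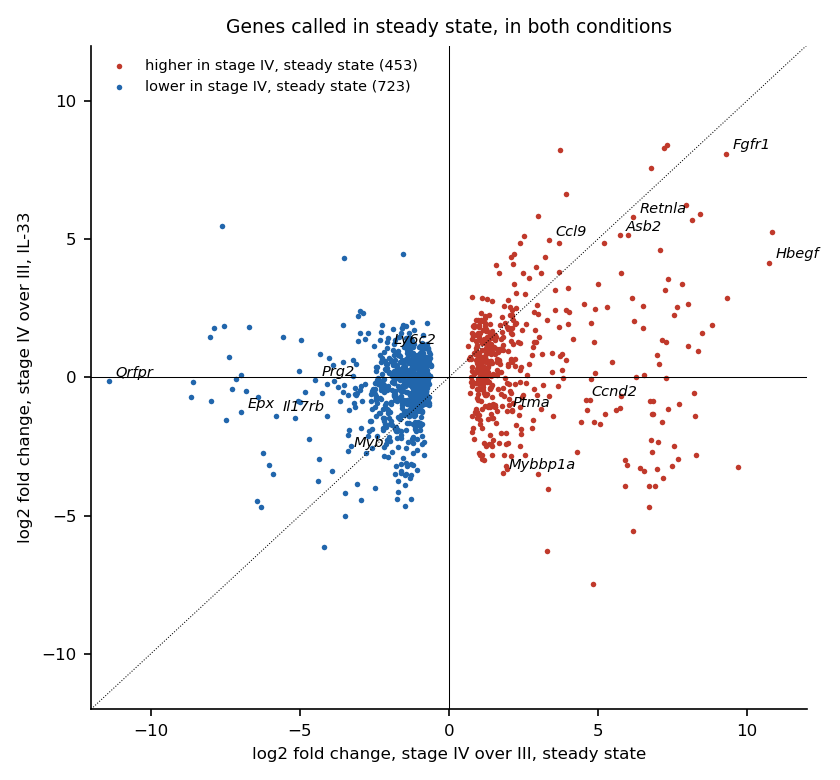
Each point is 1 of the 1176 genes called in steady state, with the fitted log2 fold change of stage IV over stage III in steady state on the horizontal axis and in IL-33 mice on the vertical axis; the dotted line marks equal change. Fgfr1, Retnla and Asb2 lie near the line and Ccl9 above it, and Prg2, Qrfpr and Ly6c2 lie far from it, near or above 0 on the vertical axis.

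The granule genes differed in every case, with 7 of 7 more negative in steady state (background 8.44%) and a median log2 of -0.27 under IL-33. Under IL-33 Prg2 stood at 11170 ± 477 CPM (SD, n = 3) before the step and 10500 ± 1252 CPM after it, and its steps differed by log2 -4.40 (edgeR adjusted p = 3.05e-07). Epx, at 13780 ± 1998 CPM and 5801 ± 1210 CPM, differed by -5.71 (edgeR adjusted p = 5.89e-09). Actin genes differed in 20 of 32 cases, lysosomal genes in 13 of 29 and vesicle fusion genes in 9 of 22, all more negative in steady state. Gsn, for example, went from 692 ± 70 CPM to 1805 ± 351 CPM under IL-33, the direction opposite to steady state (difference log2 -2.67, edgeR adjusted p = 0.000149). Itgb2 likewise went from 899.6 ± 71.6 CPM to 1604 ± 209.5 CPM (difference log2 -2.03, edgeR adjusted p = 0.000116).

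Proliferation and growth genes differed the other way. The step difference was positive and called for 23 of 26 S phase genes, 26 of 28 genes of G2 and mitosis and 20 of 25 ribosome biogenesis genes (background 10.3%), whose median log2 values under IL-33 were -3.04, -3.48 and -1.79. Mki67 went from 374 ± 36.5 CPM to 43.5 ± 7.68 CPM under IL-33, while its steady state stage III libraries already lay between 41.9 and 77.2 CPM (difference log2 3.58, edgeR adjusted p = 3.00e-06). Ptma went from 794 ± 48.4 CPM to 343 ± 58.3 CPM, a fall where steady state had a rise (difference log2 3.15, edgeR adjusted p = 1.01e-06).

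For several of the largest rises the difference between conditions was not called. Fgfr1 reached 213 ± 22.3 CPM in stage IV under IL-33 (difference log2 1.21, edgeR adjusted p = 0.533), Retnla 333 ± 128 CPM (difference 0.37, edgeR adjusted p = 0.823) and Asb2 336 ± 29.1 CPM (difference 0.60, edgeR adjusted p = 0.641). The fall of Myb, to 36.3 ± 4.7 CPM under IL-33, had a difference of -0.72 (edgeR adjusted p = 0.191). Missing the threshold does not show that these steps were equal: the standard error of the Fgfr1 difference was 1.17.

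Along all 4 steady state stages, the called genes were described by where stage III lay. It had the lowest of the 4 stage means for 61.4% of genes that rose to stage IV (26.9% of all tested genes) and the highest for 57.8% of genes that fell (23.1% of all). These shares describe genes chosen on the same stage III and IV values. Alox15 averaged 259.5 ± 26.8 CPM (SD, n = 3) at stage I, then 2237 ± 775 CPM at stage II before its stage III level, and Ly6c2 441.5 ± 68.7 CPM and 1017 ± 190.1 CPM. Csf1 averaged 73 ± 4.11 CPM and 81.4 ± 27.1 CPM, and Ptma 881 ± 36.2 CPM and 739.8 ± 66.7 CPM, both above their stage III levels. Epx by contrast fell at stage III already, from 14100 ± 1757 CPM at stage I and 12200 ± 2276 CPM at stage II.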

How the data were processed

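Full-length cDNA libraries of sorted cells were made with the SMART-Seq v4 kit followed by Nextera XT tagmentation, per the labels' protocols; these kits do not mark strand. Reads were aligned with STAR 2.6.1a to mm10, and DESeq2 was used, per the submitters' processing notes; which program counted reads, and on which annotation, is not given in the sources used here. The deposited files hold raw counts per gene symbol. The rows no_feature and ambiguous stayed out of library sizes and tests, and no_feature took 18.8% to 30.5% of reads in the 6 libraries compared. The members of the comparison follow the labels; the gene lists and the genes named were chosen with earlier results of these data known.

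edgeR 4.0.16 (R 4.3.3) fitted a quasi-likelihood model with 8 group means to all 24 libraries, after TMM scaling and filterByExpr, with Benjamini-Hochberg adjustment over 12743 genes. The script was tested on simulated counts. Standard errors are the log2 fold change over the square root of F. Ranked by fold change, change of level, adjusted p and place in the 48 lists, 222 genes could be named. A selection of them is given, and others are said to have been chosen after their values were seen. The series' text calls the 3 libraries of a group biological replicates. Deviations from the group means of stage III and IV libraries with the same number correlated at 0.20, 0.11 and 0.22, each above 0.1. Those with different numbers correlated at -0.17 to -0.00. Deviations within a group sum to 0, so the latter are not separate evidence. On the same-number values the numbers were taken to pair libraries, and the labels give only the numbers. The main fit has no term for these pairs, so its adjusted p and SE do not use them. The fit with the replicate number as a block does. Alternative settings included limma 3.58.1 and DESeq2 1.42.0. Floors cover counting error only. Gene positions are from GENCODE M21 on mm10.

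Without strand, reads of overlapping genes cannot be told apart. Among the genes named, another tested gene overlaps Cebpb, Pla2g7, Il17rb, Angptl8, Hsp90b1, Spcs3, Pdia3, Tk1, Cdc20, Ccnd2, Cdk2, Mybbp1a, Ndufs1, G6pdx, Hk3, Ptgdr2, Itga4, Becn1, Hvcn1, Ncf1, Rab37, Banf1, Prtn3, Serpinb2, Zeb2, Ccnd3, Stx4a and Sod1.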

Additional observations from a re-analysis of the deposited data

Results flagged for a closer look

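The step from stage III to stage IV differed between steady state and IL-33 mice for 85 of the 138 genes named, by the edgeR test of the difference itself (Benjamini-Hochberg over 12743 genes). Each value is the steady state log2 fold change minus the IL-33 one, and no cause was examined. Among genes that rose in steady state, the difference was positive, with a larger rise than under IL-33 or a rise against a fall, at 11.73 for Hoxa9, 9.56 for Polr1b, 7.33 for Chac1, 6.59 for Hbegf, 5.82 for Itgax, 5.42 for Ccnd2, 5.28 for Mybbp1a, 4.07 for Gins1 and 3.77 for Nop58. It was 3.77 for Tk1, 3.58 for Tmpo, 3.15 for Ptma, 2.64 for Fam3c, 2.59 for Bcl2a1b, 2.53 for Cdkn1a, 2.25 for Banf1, 2.06 for Pim3 and 1.55 for Csf1. Further values were 1.52 for Runx1 and 1.35 for Scap. In steady state stage III, Hoxa9, Chac1 and Hbegf had 0 reads and Polr1b and Itgax 5 reads each. Their differences are fitted values that depend on the prior count, and their size is not well determined.

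Among genes that rose, the difference was negative, with a larger rise under IL-33, at -2.84 for Pla2g7, -2.48 for Mgst2, -2.27 for Meis1 and -1.09 for Il4.

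Among genes that fell in steady state, the difference was negative, with a larger fall than under IL-33 or a fall against a rise, at -11.25 for Qrfpr, -5.71 for Epx, -5.24 for Ear6, -4.40 for Il17rb, -4.40 for Prg2, -4.21 for Serpinb2, -4.11 for Prg3, -3.92 for Plaur and -3.72 for Ear10. It was -3.70 for Nxnl2, -3.37 for Mxd1, -3.35 for Angptl8, -3.24 for Ear1, -3.10 for Ly6c2, -3.02 for Olfm4, -2.81 for Ear2, -2.67 for Gsn and -2.64 for Pim2. Further values were -2.39 for Fcer1a, -2.20 for Ets1, -2.13 for Itga2b, -2.08 for Ccr1, -2.07 for Mgst1, -2.03 for Itgb2, -1.98 for Stx3, -1.91 for Ncf4 and -1.88 for Arpc5. The others had -1.85 for Msmo1, -1.84 for Rab37, -1.80 for Hdc, -1.79 for Ncf1, -1.78 for Alas1, -1.73 for Ltb4r1, -1.66 for Gpi1, -1.65 for Rab3d and -1.55 for Fcgr3. The others had -1.54 for E2f2, -1.47 for Alox15, -1.42 for Lamp2, -1.41 for Nod1, -1.33 for Stx7, -1.32 for Nfe2l2, -1.32 for Fcgr2b, -1.31 for G6pdx and -1.27 for Tkt. The others had -1.24 for Hk3, -1.21 for Stxbp2, -1.18 for Cd63, -1.17 for Becn1, -1.17 for Hvcn1 and -1.06 for Cd47. Qrfpr had 0 reads in steady state stage IV, so the size of its difference also depends on the prior count.

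Among genes that fell, the difference was positive, with a larger fall under IL-33, at 3.14 for Plk1, 2.07 for Cdc20, 2.04 for Anln, 1.88 for Cenpe and 1.83 for Ccnb2.

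Among named genes not called in steady state, it was positive at 3.58 for Mki67.

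Among named genes not called in steady state, it was negative at -2.54 for Elane, -2.46 for Ccr3, -1.74 for Cybb and -1.41 for Adgre1.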

How the results depend on the processing

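The number of genes called between the stages in steady state was 1176, with 723 lower. DESeq2 called 1822, with 903 higher. The fit of the 6 libraries alone called 245 (95 higher, 150 lower), and that of the 12 steady state libraries 366 (112 and 254). Adding the unassigned share of reads as a covariate left 518 calls (201 and 317). Without the 4 libraries numbered 3, 418 were lower. Leaving out each library in turn gave 719 to 1230 calls, 305 to 467 higher and 329 to 774 lower, with the lowest total and the fewest falls without stage IV replicate 2.

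With the replicate number as a block 1755 genes were called, 740 of them higher. Of the genes named, the block ended the calls of Ptgdr2, Gins1 and Chac1 and added those of Cybb, Ccr3 and Ngp.

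For the difference between the steps, the genes more negative in steady state numbered 1705 with limma-voom and 539 under library totals, against 1075. They were 702 to 1061 when each library was left out. The total ranged from 1745 to 2419 and the genes more positive from 1013 to 1387 over the same 12 libraries.

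Of the 138 genes named, 130 were called, 86 of these missed the threshold in at least 1 alternative, and none of the 130 changed direction. The uncalled Mki67 was at log2 -0.026 with the unassigned share as covariate. The uncalled Atf3 was at -2.457 with that covariate, and at -2.104 without stage IV replicate 3 to 3.165 without stage III replicate 3. The uncalled Adgre1 was at -0.024 without stage IV replicate 1 to 0.419 without stage IV replicate 3. The cause of these changes was not tested. Depth limits the genes at or near 0 in 1 stage, whose fitted fold changes depend on the prior count.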
